A study of Mus musculus with 6 samples.

Results

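The cluster from miR-322 to miR-450 is a group of miRNA hairpins on mouse chromosome X, and its products were followed in embryonic stem cells (ESCs) grown in 3 media. Its members were chosen by name. They are the 9 mature miRNAs mmu-miR-322-5p, mmu-miR-322-3p, mmu-miR-503-5p, mmu-miR-503-3p, mmu-miR-351-5p, mmu-miR-542-3p, mmu-miR-542-5p, mmu-miR-450a-5p and mmu-miR-450b-5p, out of 1907 mature miRNAs in the count table; the prefix mmu, for mouse, is left out below. Small RNA was sequenced from the C57BL/6 ESC lines RB18 and RB20, each kept without feeders in serum, 2i or R2i, which gave 2 libraries per medium and 6 in all. Serum medium contained 15% fetal bovine serum, whereas 2i and R2i were serum free, and all 3 media contained 1000 U/ml LIF. In 2i, 1 µM of the MEK inhibitor PD0325901 was combined with 3 µM of the GSK3 inhibitor CHIR99021. In R2i, 1 µM PD0325901 was combined with 10 µM of SB431542, which blocks TGF-β receptors. Both lines were derived in R2i and later moved to 2i or serum, so R2i is the medium of origin, and RNA of 3 pooled cultures went into each library. Libraries of one medium therefore differ by line, pool and sequencing at once, and p-values measure that spread.

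miRNAs are cut from hairpins in longer transcripts, and either arm of a hairpin (5p or 3p) can be loaded into Argonaute. Target mRNAs are found mainly through the seed, the bases near the 5′ end of the miRNA, so miRNAs with one seed can act on overlapping targets. miR-322 (the mouse counterpart of human miR-424) and miR-503 belong to the miR-15/16 family, which is known for restraining the cell cycle through cyclins and Cdc25a, and both are known to be induced when myoblasts differentiate. miR-351 carries the seed of the miR-125 family. miR-542-3p, miR-450a-5p and miR-450b-5p share theirs with no other of the 1623 listed miRNAs that have a RefSeq mature sequence.

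Sequences are shown because the seeds divide the members into groups, to which the results return below. They are RefSeq mature sequences (GRCm38.p6), written 5′ to 3′ with the seed, bases 2 to 8, in capitals, in the order of the hairpins along their strand.
miR-322-5p: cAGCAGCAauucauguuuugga
miR-322-3p: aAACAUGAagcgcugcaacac
miR-503-5p: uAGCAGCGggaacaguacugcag
miR-503-3p: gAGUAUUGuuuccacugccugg
miR-351-5p: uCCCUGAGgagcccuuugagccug
miR-542-5p: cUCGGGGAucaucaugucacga
miR-542-3p: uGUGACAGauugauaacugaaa
miR-450a-5p: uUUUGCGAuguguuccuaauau
miR-450b-5p: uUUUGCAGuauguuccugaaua
Counting from 1 at the 5′ end, the seeds of miR-322-5p and miR-503-5p differ only by A8G. miR-450a-5p and miR-450b-5p were identical at 15 of 22 positions, and within the seed they differ by G7A and A8G.

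The 7 hairpins lie within 6353 bases at chrX:53047997-53054349 (GRCm38, minus strand), and none overlaps another gene in the GENCODE M21 annotation. Read along the minus strand, Mir322, Mir503 and Mir351 come first, within 1095 bases. A gap of 3767 bases, in which the long non-coding RNA gene Gm28730 lies, separates them from Mir542, Mir450-2, Mir450-1 and Mir450b, which occupy 1491 bases. The non-coding gene C430049B03Rik lies 696 bases upstream of Mir322 on the same strand. The flanking protein-coding genes are Plac1, 15645 bases upstream, and Hprt, 26337 bases downstream.
miR-450a-5p is encoded by both Mir450-2 and Mir450-1, and the hairpins are shown for that reason, with both mature arms in capitals.
Mir450-2: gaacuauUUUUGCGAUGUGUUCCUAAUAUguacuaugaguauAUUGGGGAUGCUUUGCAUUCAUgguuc
Mir450-1: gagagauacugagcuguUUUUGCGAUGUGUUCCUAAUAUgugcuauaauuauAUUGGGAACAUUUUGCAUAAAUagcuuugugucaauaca
Reads of miR-450a-5p can come from either hairpin and align to both. How such reads were counted is not given in the sources used here, so the level of miR-450a-5p and its ratios to other members are uncertain to that extent.

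Library totals ranged from 1041858 (R2i, RB18) to 3593356 (R2i, RB20) counts, and in every medium RB18 had the smaller library, so cell line and depth cannot be told apart. The 12 ESC markers (products of the miR-290 and miR-302 clusters) were all detected and made up 31.6% to 42.3% of each library. Markers of other cell types varied with the medium. The 5 mesenchymal miRNAs, mostly miR-143-3p, summed to 1431 to 2047 CPM (counts scaled to library size) in serum, 3331 to 3653 CPM with 2i and 2415 to 2423 with R2i, while miR-214-3p had at most 6 counts. The 3 muscle miRNAs summed to 46.6 to 79.4 CPM in serum against 0.305 to 0.486 with 2i and 4.005 to 7.72 with R2i, with miR-206-3p at 0 counts in 5 libraries and 3 in the other. The 4 blood miRNAs, mostly miR-142a-5p, summed to 2526 to 2841, 1795 to 4789 and 321.5 to 740 CPM, with miR-223-3p at 0 counts throughout. miR-451a, also in this list, instead had 0 and 3 counts in serum, 26 and 27 with 2i, and with R2i 22 and 66. The 2 neural miRNAs summed to 549 to 753, 430 to 519 and 457 to 493 CPM, and the liver miRNA miR-122-5p had at most 7 counts.

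Levels are given as CPM scaled by edgeR's TMM factors. A read stands for a whole mature miRNA, so these levels need no correction for length. Counts of different sequences were not calibrated against known amounts, so ranks and shares below describe counts rather than molecules. As a group, the 9 members took between 0.156% (serum, RB20) and 0.296% (R2i, RB20) of all counts. Their summed level was 2479 (RB18) and 1735 (RB20) CPM in serum, 2009 and 2264 with 2i, then 1655 and 3043 with R2i. These ranges overlap between all media. miR-351-5p was the most abundant member at a mean of 873 CPM over the libraries, rank 85 of the 1907 listed miRNAs, followed by miR-322-5p at 587 CPM (rank 101), miR-450b-5p at 291 (rank 146) and miR-542-3p at 240 (rank 157). miR-450a-5p, miR-322-3p and miR-503-5p averaged 110, 54.3 and 27.5 CPM. miR-542-5p and miR-503-3p, at 8.55 and 6.30 CPM, were the least abundant.

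**Figure D1:**
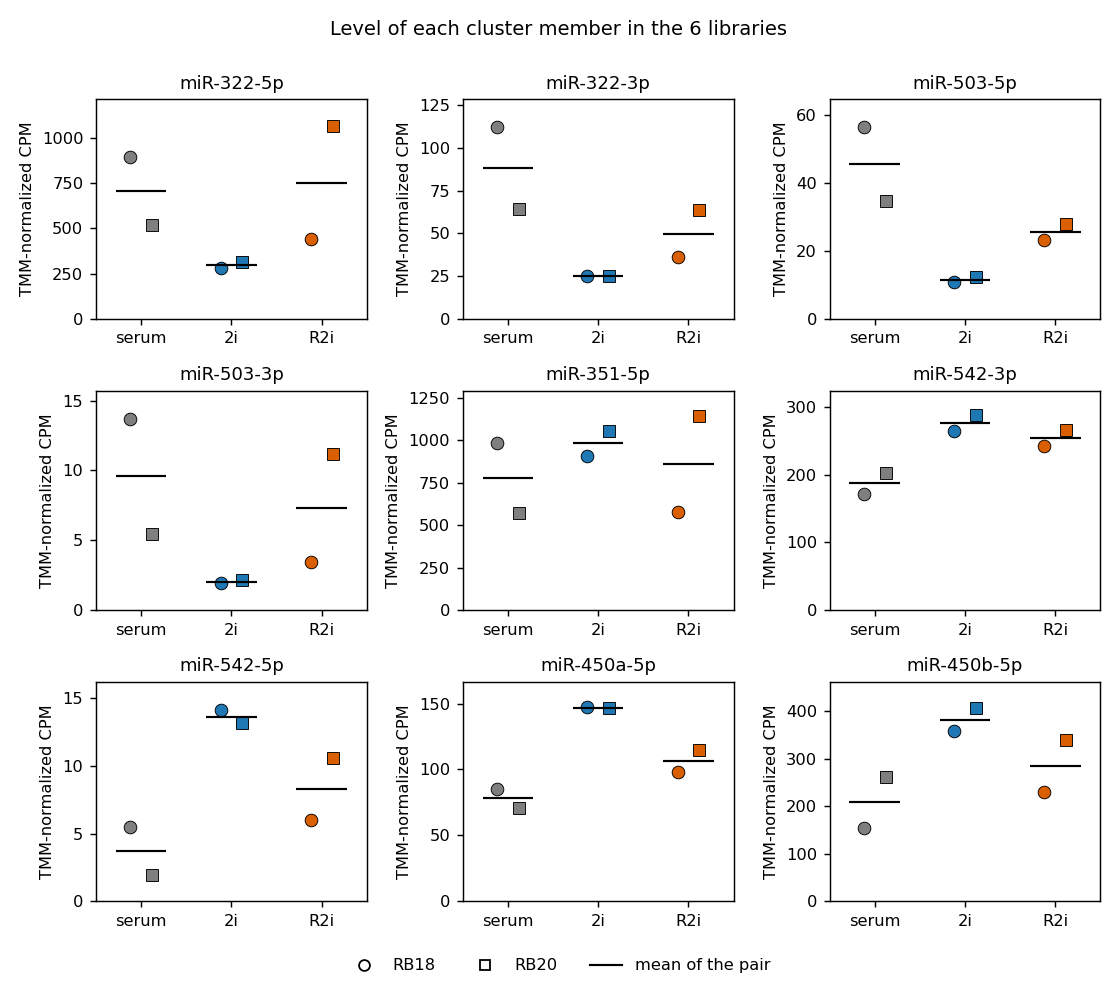
Level of each member in TMM-normalized CPM (vertical axes from 0) in serum, 2i and R2i; circles are RB18, squares RB20 and bars the mean of the pair. miR-322 and miR-503 products were lowest in 2i, and miR-542 and miR-450 products were highest in 2i. RB18 and RB20 changed places between serum and R2i for several members, including miR-322-5p and miR-351-5p.

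The first comparison asked how 2i differed from serum. miR-503-5p and miR-322-3p were lower in 2i, and the other products of these hairpins had values in the same direction, while the products of miR-542 and miR-450 had higher values in 2i that did not pass the test. A miRNA was called when edgeR's quasi-likelihood test gave a Benjamini-Hochberg adjusted p under 0.01 over all 571 miRNAs tested, with a change of more than 2-fold. All 9 members passed the filter on low counts. miR-503-3p had 4 and 7 counts in 2i and passed through serum (25 and 11) and the R2i library of RB20 (39). Tallies that count it as lower in 2i therefore rest in part on that selection. Of the 9 members, 0 were called higher and 2 lower, beside 34.2% of all tested miRNAs called in either direction (16.8% higher and 17.3% lower). DESeq2 called 3 (background 38.4%). The members had a median log2 fold change of 0.34, against -0.03 over all miRNAs tested. At an unadjusted p under 0.05, 4 members were higher and 4 lower, and the background was 57.6% (28.5% higher and 29.1% lower). With an adjusted p under 0.05 and over 2-fold, 5 members passed, 1 higher and 4 lower (background 45.0%). At that p without a fold limit 6 passed, 2 higher and 4 lower (51.1%). Without a filter on low counts, 5 were called, 1 higher (miR-542-5p) and 4 lower (20.6% of 1233 miRNAs).

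miR-503-5p had 56.4 (RB18) and 34.7 (RB20) CPM in serum, 10.7 and 12.2 with 2i, and with R2i 23.2 and 27.7. All libraries of one medium were thus apart from those of the others, with the lowest values in 2i. Against serum it was 3.93-fold lower in 2i (log2 fold change -1.98, standard error 0.33, adjusted p = 0.00158, edgeR). Its partner from the other arm, miR-503-3p, was counted between 4 and 39 times in a library. It had 13.7 and 5.45 CPM in serum, 1.94 and 2.14 with 2i, and with R2i 3.43 and 11.2, with a log2 fold change of -2.18 in 2i (standard error 0.73, adjusted p = 0.0394, edgeR), which was not called.

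miR-322-5p had 899 and 521 CPM in serum, 280 and 316 with 2i, and with R2i 442 and 1065. Both 2i libraries were below the other 4, which overlapped. The log2 fold change in 2i was -1.25 (standard error 0.44, adjusted p = 0.0468, edgeR) and was not called, although DESeq2 called it (-1.24, adjusted p = 0.00906). miR-322-3p, the less abundant arm, had 112 and 64.5 CPM in serum, 24.8 and 24.7 with 2i, and with R2i 36.0 and 63.5. The 2i libraries were again the lowest, and miR-322-3p was 3.56-fold lower than in serum (log2 fold change -1.83, standard error 0.37, adjusted p = 0.00432, edgeR).

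With the cell line as a block, miR-503-5p was still called (-1.96, adjusted p = 0.00549, edgeR) but miR-322-3p was not (-1.83, adjusted p = 0.0142, edgeR), beside a background of 31.0%. Without the 2i library of RB18 or that of RB20, neither was called; the adjusted p of miR-503-5p was then 0.0110 and 0.0105, and that of miR-322-3p 0.0149 and 0.0278. The log2 fold changes stayed close to those above, at -1.87 and -2.05 for miR-503-5p and -1.81 and -1.80 for miR-322-3p, while the standard errors rose to between 0.49 and 0.52. Without the serum library of RB18, only miR-503-5p was called (-1.48, adjusted p = 0.00931, edgeR). The summed muscle markers were also lower in 2i than in serum, and their part in these results was not tested.

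Beyond the gap, the products of miR-542 and miR-450 had higher levels in 2i than in serum. miR-450a-5p had 85.4 and 70.9 CPM in serum, 147 and 146 with 2i, and with R2i 97.8 and 114. The 3 media did not overlap, with 2i the highest. Its log2 fold change in 2i was 0.91 (standard error 0.24, adjusted p = 0.0145, edgeR), short of both limits. miR-450b-5p had 153 and 262 CPM in serum, 358 and 406 with 2i, and with R2i 229 and 339, where the R2i and serum libraries overlapped (log2 fold change in 2i 0.88, standard error 0.33, adjusted p = 0.0581, edgeR).

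miR-542-3p, the main arm of its hairpin, had 171 and 203 CPM in serum, 265 and 289 with 2i, and with R2i 243 and 267. Serum was below both other media, which overlapped, and the log2 fold change in 2i was 0.56 (standard error 0.23, adjusted p = 0.0758, edgeR). miR-542-5p had only 10 and 4 counts in serum, 29 and 43 with 2i, and with R2i 7 and 37. This corresponds to 5.48 and 1.98 CPM, 14.1 and 13.1 CPM, and 6.005 and 10.6 CPM. Its log2 fold change in 2i was 1.87 (standard error 0.53, adjusted p = 0.0205, edgeR) and was not called. The summed mesenchymal markers were also higher in 2i than in serum, and their part in these values was not tested.

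miR-351-5p, whose hairpin stands between the other groups, had 982 and 572 CPM in serum, 908 and 1055 with 2i, and with R2i 575 and 1145. The media overlapped. Its log2 fold change in 2i was 0.34 (standard error 0.39, adjusted p = 0.504, edgeR).

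**Figure D2:**
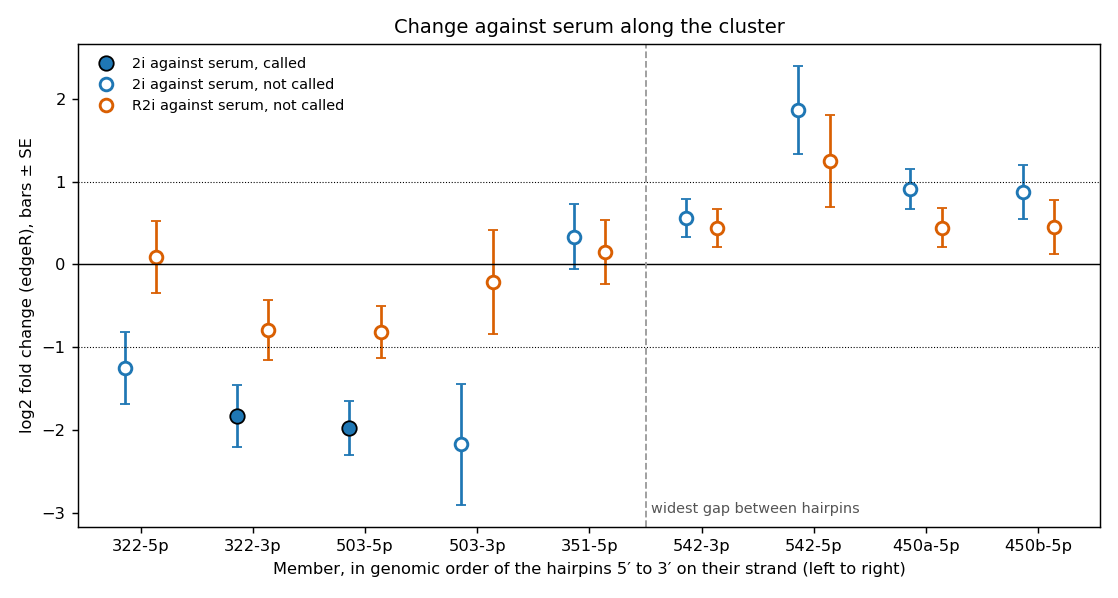
log2 fold change against serum (vertical axis, edgeR, bars are standard errors) of the 9 members, from Mir322 on the left to Mir450b on the right; blue is 2i, orange R2i, filled points were called and dotted lines mark 2-fold. In 2i the values ran from -1.25 to -2.18 for miR-322 and miR-503 and from 0.56 to 1.87 for miR-542 and miR-450, and only miR-322-3p and miR-503-5p were called. The -2.18 is that of miR-503-3p, which had only 4 and 7 counts in 2i.

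In 2i against serum, the 2 libraries of a medium were apart from those of the other for 8 of the 9 members, 4 above and 4 below serum, and the change had the same sign in both lines for 8 of 9. Over all miRNAs tested these shares were 77.8% and 83.9%, so neither count sets the members apart from other miRNAs. The exception in both was miR-351-5p.

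The second comparison asked how R2i, which blocks TGF-β receptors in place of GSK3, differed from serum. Of the 9 members, 0 were called by edgeR, beside 30.6% of all tested miRNAs. DESeq2 called 0 too (background 32.7%), and 1 member, miR-503-5p, was lower at an unadjusted p under 0.05 (background 49.6% in all and 26.8% lower). The log2 fold change of miR-503-5p was -0.82 (standard error 0.31, adjusted p = 0.0707, edgeR), and that of miR-322-3p was -0.79 (standard error 0.36, adjusted p = 0.112). For miR-322-5p it was 0.09 (standard error 0.44), for miR-503-3p -0.21 (0.63) and for miR-351-5p 0.15 (0.39). miR-542-3p, miR-450a-5p and miR-450b-5p had nearly the same log2 fold change, 0.45, 0.45 and 0.45, with standard errors of 0.23, 0.24 and 0.33. miR-542-5p had 1.25 (standard error 0.56, adjusted p = 0.11, edgeR). The libraries of R2i and serum were apart for 5 of 9 members, and 6 of 9 had the same sign in both lines, beside 70.6% and 77.9% of all tested miRNAs.

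The third comparison set R2i against 2i. edgeR called 0 of the 9 members, beside 0.350% of all tested miRNAs. DESeq2 called 0 too (background 2.45%), but it gave no adjusted p for miR-503-3p and miR-542-5p here. Without a filter on low counts 1 was called by edgeR, miR-322-5p (background 2.03%). At an unadjusted p under 0.05, 4 members were higher in R2i and 0 lower, and the background was 18.2% (10.7% higher and 7.53% lower). These were the 4 products of miR-322 and miR-503: miR-322-5p with a log2 difference of 1.34 (standard error 0.44, adjusted p = 0.185, edgeR), miR-322-3p with 1.04 (0.37, adjusted p = 0.197), miR-503-5p with 1.16 (0.33, adjusted p = 0.162) and miR-503-3p with 1.97 (0.73, adjusted p = 0.206). The other 5 members had log2 differences from -0.62 (miR-542-5p) to -0.12 (miR-542-3p). In both lines the 4 products of miR-322 and miR-503 were higher and the 4 products of miR-542 and miR-450 lower in R2i than in 2i. That is 8 of 9 members, beside 71.6% of all tested miRNAs, and the libraries were apart for 7 of 9, beside 57.1%.

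For the ground state as a whole, the mean of 2i and R2i, 0 members were called higher and 2 lower than in serum, beside a background of 37.0% (17.0% higher and 20.0% lower). These were again miR-503-5p (log2 fold change -1.40, standard error 0.26, adjusted p = 0.00276, edgeR) and miR-322-3p (-1.31, standard error 0.30, adjusted p = 0.00727). Each was called in 2i but not in R2i, where the log2 fold changes were -0.82 and -0.79. A call on the mean thus differs from the paper's definition of ground-state miRNAs, which requires a rise in both media. With the cell line as a block, 1 was called, miR-503-5p (-1.37, adjusted p = 0.00892, edgeR), whereas miR-322-3p had an adjusted p of 0.0229 (background 34.2%). With limma 1 was called (35.7%), and with an adjusted p under 0.05 and no fold limit 4 (51.3%). Without the serum library of RB18 neither was called (-0.90 and -0.75), nor without the R2i library of RB18 (-1.34 and -1.15). Without either 2i library, miR-322-3p was not called (-1.31 and -1.28).

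Counts of members set against each other within a library do not depend on how libraries were scaled. The pairs of members were chosen after their values were seen, so the ratios are a description without a test, and with 2 libraries per medium the smallest p an exact permutation test allows is 0.333. For every count of miR-351-5p there were 0.915 (RB18) and 0.911 (RB20) counts of miR-322-5p in serum, 0.308 and 0.2999 with 2i, and with R2i 0.769 and 0.930. The lines were close in serum and in 2i, and 2i stood apart. miR-322-5p and miR-351-5p, whose hairpins have Mir503 between them, thus had unequal changes between serum and 2i. Per count of miR-542-3p there were 5.24 and 2.57 counts of miR-322-5p in serum, 1.06 and 1.096 with 2i, and with R2i 1.82 and 3.996. Per count of miR-450a-5p there were 0.660 and 0.489 counts of miR-503-5p in serum, 0.0726 and 0.0835 with 2i, and with R2i 0.237 and 0.243, so that the media did not overlap.

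Within the upstream group, miR-322-5p per miR-503-5p was 15.9 and 15.0 in serum, 26.2 and 25.9 with 2i, and with R2i 19.1 and 38.4. The lines were close in serum and in 2i and far apart in R2i. miR-351-5p per miR-450b-5p was 6.41 in serum RB18 but 2.18 in serum RB20, and between 2.51 and 3.37 in the other libraries. miR-450b-5p per miR-450a-5p was 1.80 in serum RB18 and 3.70 in serum RB20, the lowest and highest of the 6, with 2.43 and 2.77 in 2i. miR-542-3p per miR-450a-5p stayed between 1.80 and 2.86.

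As a share of the cluster, miR-322 and miR-503 together gave 43.6% (RB18; 95% Wilson interval 42.2% to 45.0%) and 36.1% (RB20; 34.5% to 37.7%) of the 9 members' counts in serum. In 2i they gave 15.8% (14.7% to 16.9%) and 15.7% (14.9% to 16.5%), and in R2i 30.5% (28.5% to 32.6%) and 38.4% (37.4% to 39.3%). Intervals cover counting error only, as reads are not independent molecules. The share of miR-542, miR-450a and miR-450b was 16.8% and 31.0% in serum, 39.0% and 37.7% with 2i, and with R2i 34.8% and 24.0%. miR-351-5p alone gave 45.2% and 46.6% in 2i, compared with 39.6% and 32.9% in serum and 34.7% and 37.6% in R2i.

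**Figure D3:**
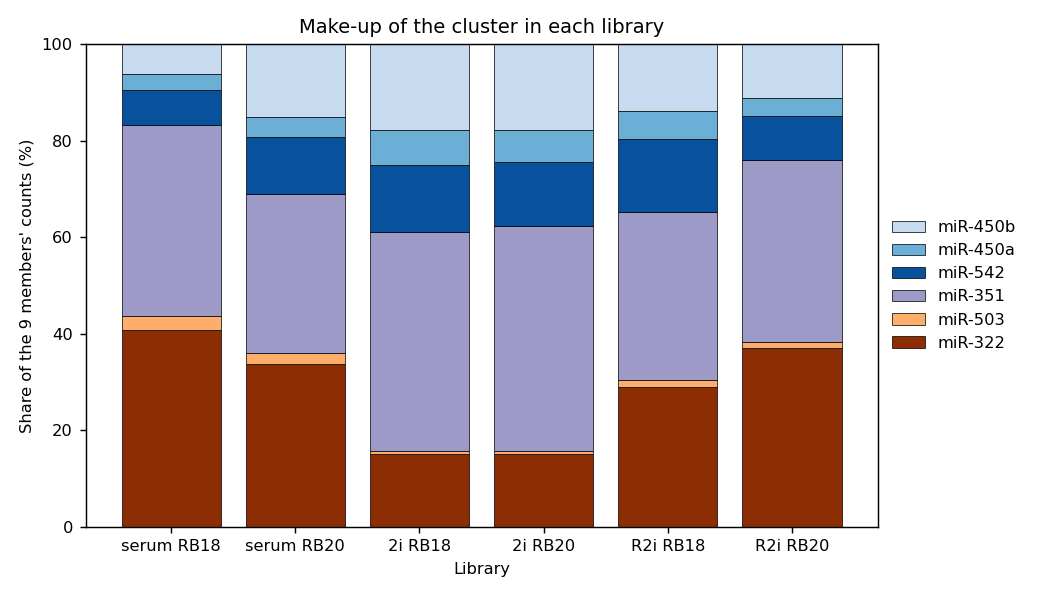
Share of the 9 members' counts (vertical axis, percent) given by each miRNA in each of the 6 libraries, as stacked bars. The 2i bars are nearly alike, with 15.2% and 15.1% from miR-322, whereas miR-322 gave between 28.9% and 40.8% in the serum and R2i libraries.

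Both arms of a hairpin come from the same precursor. For miR-322, the 5p arm gave 88.9% (95% Wilson interval 87.4% to 90.3%) and 89.0% (87.1% to 90.7%) of the counts of both arms in serum. It gave 91.9% (89.5% to 93.8%) and 92.7% (91.1% to 94.1%) in 2i, and 92.5% (89.96% to 94.4%) and 94.4% (93.6% to 95.05%) in R2i. Both serum libraries were below the other 4, but the intervals of the RB18 libraries of 2i and R2i overlapped those of serum. For miR-503 the 5p share lay between 71.3% and 87.1% with no order by medium. For miR-542, where the 3p arm dominates, the 5p share was 3.10% and 0.968% in serum, 5.05% and 4.35% with 2i, and with R2i 2.41% and 3.82%.

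The remaining arms of these hairpins are not among the 9 members, and 0 of the 4 passed the filter on low counts. miR-351-3p had 15 and 6 counts in serum, 3 and 3 with 2i, and with R2i 3 and 14. miR-450b-3p had between 2 and 16 counts in a library, miR-450a-1-3p between 0 and 8, and miR-450a-2-3p between 0 and 2. The 5p arm therefore gave at least 99.2% of miR-351, 98.7% of miR-450b and 96.9% of miR-450a counts in every library.

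**Figure D4:**
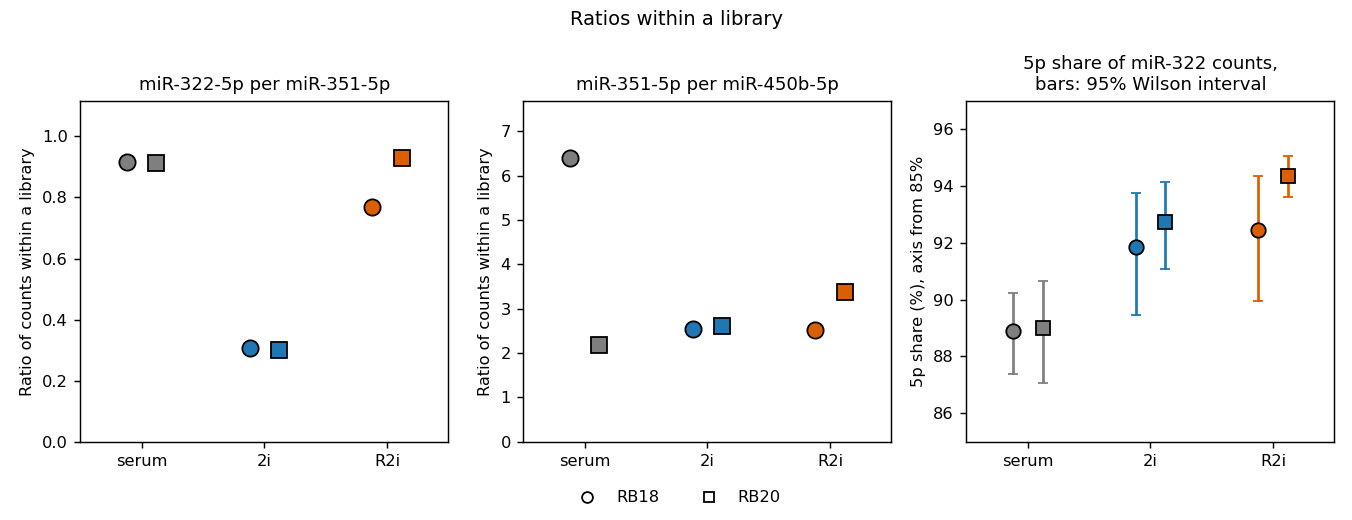
Ratios of counts within each library by medium; circles are RB18 and squares RB20. miR-322-5p per miR-351-5p (left) was near 0.3 only in 2i, miR-351-5p per miR-450b-5p (middle) was 6.41 in serum RB18, and the 5p share of miR-322 (right, axis from 85%, bars are 95% Wilson intervals) was lowest in serum.

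Several members differed between the lines in opposite directions in serum and in R2i. The share of all tested miRNAs with such a reversal was not determined. In serum, RB20 had 0.580 times the miR-322-5p level of RB18, in 2i 1.13 times and in R2i 2.41 times. For miR-351-5p these ratios were 0.582, 1.16 and 1.99, close to those of miR-322-5p in serum and 2i but not in R2i. For miR-503-3p they were 0.398, 1.1 and 3.25. Beyond the gap, miR-542-5p had 0.362, 0.932 and 1.76, from 4 to 43 counts in a library, and miR-450a-5p had 0.830, 0.993 and 1.17, also below 1 in serum and above 1 in R2i. miR-542-3p had 1.18, 1.09 and 1.098, and miR-450b-5p had 1.71, 1.13 and 1.48, with RB20 above RB18 in all 3 media. A line has a single library per medium, so these ratios have no replicate, and a difference between lines was not tested. The R2i pair differs most in depth, since RB18 had the smallest and RB20 the largest total, and depth cannot be told apart from the line.

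Across the 6 libraries, log2 levels of miR-322-5p and miR-503-3p had a Pearson r of 0.98, and those of miR-322-3p and miR-503-5p 0.97. miR-542-3p with miR-450b-5p had 0.91, and miR-542-5p with miR-450a-5p 0.95. miR-503-5p had r = -0.87 with miR-542-3p, -0.86 with miR-450a-5p and -0.84 with miR-450b-5p. For miR-322-5p the values with products of miR-542 and miR-450 were weaker, between -0.52 (miR-450a-5p) and -0.28 (miR-542-5p). miR-351-5p had its highest values with miR-542-5p (0.73) and miR-450a-5p (0.61), and between -0.17 (miR-503-5p) and 0.31 (miR-450b-5p) with the other 6. These are descriptions over 6 points that share media, lines and scaling factors.

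The seed of miR-322-5p, AGCAGCA, is shared by 9 other listed miRNAs with a RefSeq sequence, of which 5 were tested; miR-195b, miR-6342, miR-6353 and miR-6419 had 0 counts. miR-503-5p shares bases 2 to 7 with the same set. In these libraries most counts with this seed were those of miR-16-5p. It had 26980 ± 484.9 CPM in serum, 42620 ± 4494 with 2i and 35910 ± 11770 with R2i (SD over the 2 libraries). Of the counts with AGCAGC at bases 2 to 7, miR-322-5p gave 3.04% and 1.77% in serum, 0.663% and 0.652% with 2i, and with R2i 1.46% and 2.23%. miR-503-5p gave at most 0.191% of them. Among the others, miR-15a-5p was called higher in both ground-state media by edgeR, by 1.52 on the log2 scale for 2i (adjusted p = 0.00169) and by 1.08 for R2i (adjusted p = 0.00945), each with a standard error of 0.25. The values for 2i were 0.66 for miR-16-5p (adjusted p = 0.0760), 0.41 for miR-15b-5p (0.175), -0.73 for miR-195a-5p (0.0383) and -0.77 for miR-497a-5p (0.0337), none of them called. The median of the 5 was 0.41 in 2i, beside -0.03 over all tested.

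The seed of miR-351-5p, CCCUGAG, is also that of miR-125a-5p and miR-125b-5p, while miR-6367 and miR-6394, which share it, had 0 counts. miR-351-5p gave 23.8% (RB18; 95% Wilson interval 22.8% to 24.8%) and 25.8% (RB20; 24.5% to 27.1%) of the counts with this seed in serum. In 2i it gave 55.5% (53.8% to 57.2%) and 53.9% (52.7% to 55.1%), and in R2i 54.4% (51.6% to 57.2%) and 58.3% (57.1% to 59.5%). The serum intervals were apart from all others. miR-125a-5p had 2241 ± 1049 CPM in serum, 733.5 ± 91.0 with 2i and 541.3 ± 256.0 with R2i (SD over the 2 libraries). It was called lower in R2i (-2.05, standard error 0.44, adjusted p = 0.00624, edgeR) but not in 2i (-1.61, standard error 0.43, adjusted p = 0.0160). miR-125b-5p was not called by edgeR, at -0.93 (adjusted p = 0.0417) for 2i and -0.53 (adjusted p = 0.225) for R2i.

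Outside the cluster, 49 of the 134 listed miRNAs whose genes all lie on chromosome X were tested. In 2i against serum 3 of them were called higher and 5 lower, beside 34.2% of all tested miRNAs called in either direction. Their median log2 fold change was -0.07, against -0.03 over all tested. In R2i 3 of them were higher and 5 lower, beside 30.6%, with a median of -0.19 against -0.07. The largest changes in 2i were those of miR-505-3p (3.05, adjusted p = 0.00156, edgeR), miR-465a-5p (2.44, adjusted p = 0.0758, not called), miR-362-3p (-1.94, adjusted p = 0.000360) and miR-92a-2-5p (-1.92, adjusted p = 0.00385). The nearest miRNA genes are those of the miR-106a-363 cluster, 305429 bases downstream on the same strand. Its 9 products that come from no other gene had a median of -0.52 in 2i and -0.63 in R2i. Of these, 1 was called lower in 2i and 0 in R2i, beside the shares over all tested miRNAs given above.

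The 5 tested miRNAs outside the cluster whose log2 level followed the summed level of the 9 members most closely over the 6 libraries were miR-26b-3p (Pearson r = 0.96), miR-126a-3p (0.93), miR-92b-5p (0.88), miR-20a-3p (0.83) and miR-293-3p (0.80), from 562 candidates. They lie on chromosomes 1, 2, 3, 14 and 7. miR-26b-3p had 29.0 and 19.8 CPM in serum, 21.9 and 23.8 with 2i, and with R2i 18.0 and 29.2, with RB18 above RB20 in serum and below it in 2i and R2i, as for the cluster sum. The miRNA was picked for its likeness to that sum, so the shared order is not a separate result.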

How the data were processed

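Small RNA libraries of RB18 and RB20 ESCs in serum, 2i and R2i were analysed (n = 2 libraries per medium). The authors removed adaptors, filtered reads by length, aligned them to the mouse genome (mm10 per the labels) and deposited a table of raw counts, 1 row for each of 1907 mature miRNAs. Per the labels the tools were FastQC 0.11.5, cutadapt 1.3, Bowtie 1.1.2 and featureCounts 1.5, whose settings, such as the treatment of reads with several positions, are not given in the sources used here. The authors also deposited log2 values for 1233 miRNAs. These equalled log2(count / size factor + 1) within 0.005, with median-of-ratios size factors.

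The quasi-likelihood test of edgeR 4.0.16 (R 4.3.3) was run on the counts with TMM scaling and 1 coefficient per medium. filterByExpr, at 10 counts for a miRNA and 15 in total, kept 571 miRNAs. The biological coefficient of variation was 24.6%. A standard error is the size of the log2 fold change over the root of its F statistic. Alternatives used DESeq2 1.42.0, limma 3.58.1 on the deposited log2 values, other scalings, filters and limits, a block for cell line and fits without each library. The block pairs libraries by the cell line named in the labels; differences between the lines correlated at 0.21 (serum with 2i), 0.248 (2i with R2i) and -0.128 (serum with R2i) over the 571 miRNAs. The tests were tried on simulated counts. RefSeq held mature sequences for 1623 of the 1907 names, including all 9 members. Named were the 9 members, the other arms of their hairpins, miRNAs sharing their seeds, the 5 closest to the cluster sum, and the 2 largest changes each way on chromosome X. The members and lists were chosen with earlier results of these data known. Totals of 1041858 to 3593356 counts put a floor of 3 counts at 0.858 to 2.57 CPM. Shares, levels and plots were made with matplotlib 3.10.9, scipy 1.17.1, numpy 2.4.6 and pandas 2.3.3 under Python 3.11.15.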

Additional observations from a re-analysis of the deposited data

Results flagged for a closer look

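miR-351-5p was singled out because the lines moved in opposite directions from serum to both ground-state media. In RB18 its log2 difference from serum was -0.11 in 2i and -0.77 in R2i, while in RB20 it was 0.88 and 1.00. Averaged over both media, the difference between the lines was 1.39 on the log2 scale (RB20 minus RB18). Each line has 1 library per medium, and the difference was not tested. Groups of 2 libraries are too small for a search for outlying samples.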

How the results depend on the processing

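For 2i against serum, the number of members called, 2 as reported, was 5 without a filter on low counts, 5 at an adjusted p under 0.05 with over 2-fold, 6 at that p without a fold limit, and 1 once the cell line entered as a block. For ground state against serum it went from 2 to 4 at an adjusted p under 0.05 without a fold limit, and to 1 with limma on the deposited log2 values and 1 with the block. Without each library in turn, both numbers ranged from 0 to 2, where the lone library left in a medium was assumed to vary like the others. R2i against 2i gave 1 (miR-322-5p) in place of 0 without the filter, and R2i against serum gave 0 throughout. A block with library totals, and a block with the R2i lines exchanged (chosen after seeing the data), gave 2, 0, 0 and 2. The block changed no other call of a member than that of miR-322-3p in 2i and the ground state. In 2i against serum, 8 of the 9 members kept their sign under every alternative run. Signs turned only when a library was left out: for miR-351-5p the log2 fold change then ranged from -0.056 to 0.89 in 2i, -0.43 to 0.69 in R2i, -0.15 to 0.79 in the ground state and -0.79 to 0.19 for R2i against 2i, and in R2i against serum it ranged from -0.68 to 0.63 for miR-322-5p and -1.45 to 0.67 for miR-503-3p. The cause was not tested. Another scaling moved the summed level of the members by less than the spread between libraries in each medium. Over all miRNAs, a minimum of 10 counts in every library took the calls from 195 to 128 for 2i and from 211 to 135 for the ground state, with fewer miRNAs tested, and R2i against 2i ranged from 0 to 25 calls around 2. miR-503-3p and miR-542-5p, with as few as 4 counts in a library, are limited by depth.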
